A study of Homo sapiens with 145 samples.

Results

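Long non-coding RNA genes make transcripts that are not translated into protein. The 374 genes described here are those the array could follow in HT-1080, a line established from a human fibrosarcoma. They were chosen by name: symbols starting LINC0 (intergenic transcripts), symbols starting SNHG (hosts of small nucleolar RNAs), symbols ending in -AS1, -AS2 or -IT1 (transcripts antisense to, or inside an intron of, the gene they are named after) and symbols starting MIR and ending in HG (hosts of microRNAs). Of 1527 such symbols on the array, 374 had a probe set with a log2 value of 4 or more in 5 or more arrays, and these 374 were among 12070 genes tested. The other 1153 symbols did not pass, and 1072 of them reached 4 in 0 arrays. By kind, 211 of 693 antisense or intronic genes passed, 120 of 764 LINC genes, 24 of 48 microRNA hosts and 19 of 22 SNHG genes.

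The cultures received 1 of 3 chemicals, or only the solvent DMSO, for 24 h. Etoposide (ETP) traps topoisomerase II on DNA and leaves double-strand breaks, methyl methanesulfonate (MMS) methylates DNA bases, and quercetin (QUE) is a flavonol from plants. Etoposide was given at 0.003, 0.01, 0.03, 0.1, 0.3, 1 and 3 µM, methyl methanesulfonate at 1, 3, 10, 30, 100, 300 and 500 µM and quercetin at 1, 3, 10, 30, 60, 80 and 100 µM. Every etoposide and quercetin group held 5 replicates, as did methyl methanesulfonate at 500 µM, and the other methyl methanesulfonate groups and their vehicle held 6. All groups came from 1 cell line, and the labels do not say whether a replicate number stands for a separate culture, so p-values measure the spread between these arrays, which may be technical. Every dosed group was set against the DMSO group that belongs to the same chemical. Values are the authors' log2 probe set summaries, and a gene was called changed at a limma adjusted p under 0.05 over 12070 genes together with a change of at least 1.5-fold.

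The arrays numbered 2 of etoposide and of quercetin, 16 in all, were left out of these groups because they responded like the other chemical, a choice that rests on measured values. They stood apart in several of the genes described here, which is given as a description and not as support for that choice. MIR17HG was at 5.64 on the number 2 vehicle array of etoposide and at 7.24 on the number 2 array of 3 µM, whereas the 5 other arrays of 3 µM lay between 4.37 and 5.21. In quercetin it was at 5.73 on the number 2 vehicle array and at 3.81 at 100 µM, whereas the 5 other arrays of 100 µM lay between 6.47 and 7.53. SNHG1 was at 11.65 on the number 2 array of etoposide at 3 µM and at 10.30 on that of quercetin at 100 µM, again on the side of the other chemical. LINC01588 was at 6.97 and 6.85 on these arrays, but it rose by a like amount with both chemicals and so could not show which chemical they followed. The main counts and calls that change when these arrays are put back are given with the results below.

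As background, the 4 kinds of gene differ in what is known of them. An SNHG gene carries small nucleolar RNAs, which guide the chemical modification of ribosomal RNA, inside its introns, and the spliced exons that remain are often short-lived because ribosomes on them bring about nonsense-mediated decay. Several snoRNA hosts start with a C followed by a run of pyrimidines (a terminal oligopyrimidine start), the signature of transcripts whose translation follows growth signalling. A microRNA host is the long precursor from which a microRNA hairpin is cut. Antisense transcripts start near or inside a protein-coding gene on the other strand, and many share a promoter region with it. The p53 protein, which DNA damage stabilises, is known to induce several long non-coding RNA genes, among them the host of miR-34a. The array reads the spliced or polyadenylated host transcript by its 3′ end, so the small RNAs themselves were not measured.

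The first bases of SNHG genes are shown because the oligopyrimidine start is the sequence feature the family is known for. RefSeq windows on GRCh38.p14 were found for 16 of the 19 SNHG genes, and 30 bases from the annotated start are printed for 6 of them, with the uninterrupted run of C or T from the first base in capitals.
SNHG12, chr1:28581844-28581873, minus strand: CCTTTCTCCCCgccgcattcccggtgtcga
SNHG32, chr6:31834916-31834945, plus strand: CTTTTTgcgaagtgggctcgtgggttggca
SNHG19, chr16:2155329-2155358, minus strand: CTTTTCggggtcgagtccgagggggaagag
SNHG7, chr9:136728155-136728184, minus strand: CTCTgcgtgcgccggaggctgccgtggcgg
SNHG1, chr11:62855856-62855885, minus strand: CTCatttttctactgctcgtggtaagtggc
SNHG3, chr1:28505943-28505972, plus strand: gattctctaactgcgcatgcttctgcgcac
A C at the annotated first base followed by at least 4 more C or T, read on the gene's own strand, was found in 5 of the 16 SNHG windows (31.2%), namely SNHG4, SNHG5, SNHG12, SNHG19 and SNHG32. It was found in 7 of 269 other long non-coding RNA genes with a window (2.6%) and in 1104 of 27305 genes of the whole table (4.04%). This is a description of annotated starts, which may differ from the start used in these cells. RefSeq places at least 1 snoRNA gene inside 16 of the 19 SNHG genes, 39 in all, and none inside SNHG10, SNHG20 or SNHG28.

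The mature microRNAs of 6 hosts that the results turn on are shown with the seed, bases 2 to 8, in capitals, since the seed decides which transcripts a microRNA pairs with.
miR-17-5p, MIR17HG, chr13:91350618-91350640, plus strand: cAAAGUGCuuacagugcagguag
miR-20a-5p, MIR17HG, chr13:91351072-91351094, plus strand: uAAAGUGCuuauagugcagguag
miR-18a-5p, MIR17HG, chr13:91350756-91350778, plus strand: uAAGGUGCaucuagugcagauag
miR-19a-3p, MIR17HG, chr13:91350939-91350961, plus strand: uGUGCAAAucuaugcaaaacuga
miR-19b-3p, MIR17HG, chr13:91351245-91351267, plus strand: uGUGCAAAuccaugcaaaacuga
miR-92a-3p, MIR17HG, chr13:91351361-91351382, plus strand: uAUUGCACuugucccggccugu
miR-210-3p, MIR210HG, chr11:568112-568133, minus strand: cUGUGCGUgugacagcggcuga
miR-22-3p, MIR22HG, chr17:1713914-1713935, minus strand: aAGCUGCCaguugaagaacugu
miR-155-5p, MIR155HG, chr21:25573983-25574006, plus strand: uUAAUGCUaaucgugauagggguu
miR-34a-5p, MIR34AHG, chr1:9151735-9151756, minus strand: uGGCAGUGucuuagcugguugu
miR-181a-5p, MIR181A2HG, chr9:124692480-124692502, plus strand: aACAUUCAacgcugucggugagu
miR-181b-5p, MIR181A2HG, chr9:124693725-124693747, plus strand: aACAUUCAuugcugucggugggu
MIR17HG holds 6 hairpins. Its miR-17-5p and miR-20a-5p share a seed and its miR-19a-3p and miR-19b-3p share another, as do miR-181a-5p and miR-181b-5p of MIR181A2HG. RefSeq places at least 1 mature microRNA inside 22 of the 24 hosts.

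The long non-coding RNA genes had low log2 values on the array. Their median level in the vehicle arrays was 4.86 in etoposide, 4.29 in methyl methanesulfonate and 4.70 in quercetin, where the median over all genes tested was 7.63, 6.99 and 7.44. A group mean under 4 is not taken as above background here: 78 of the 374 genes were under 4 in all 3 vehicle means and 208 at 4 or more in all 3. The 6 genes at exactly 5 arrays, just inside the filter, had means over all arrays between 3.19 and 3.57 (GLYATL1-AS1, LINC01222, LURAP1L-AS1, MIR1-1HG, MKNK1-AS1 and PTOV1-AS1), and 13 symbols at 4 arrays lay just outside. The filter did not look at groups, and 0 genes passed on arrays of 1 group alone. Genes that passed only on arrays of several doses of 1 chemical were not counted. LURAP1L-AS1, just inside the filter, was among the largest rises at methyl methanesulfonate 500 µM. Of 10 mesenchymal markers 9 were at 4 or more in every vehicle and highest-dose group, THY1 being the exception, and 0 of 8 epithelial and 0 of 8 blood cell markers passed the filter. The summed log2 level of the 9 mesenchymal markers lay between 91.5 and 93.2 in the methyl methanesulfonate vehicle and between 83.2 and 86.2 at 500 µM, where 5 of the 9 fell (log2 changes of -1.96 for SPARC, -1.44 for FN1, -1.29 for COL6A3, -0.81 for COL6A1 and -0.72 for S100A4). At quercetin 100 µM 1 of the 9 fell, and at etoposide 3 µM 0 of 9 changed by the limma calls. Of all genes tested 16.9% fell at this dose of methyl methanesulfonate. The part of these markers' change in the results was not tested.

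Called changes among the long non-coding RNA genes appeared from 0.1 µM etoposide, 100 µM methyl methanesulfonate and 10 µM quercetin. With etoposide none was called up to 0.03 µM (0 of 374 by limma, 8, 5 and 40 genes having an unadjusted p under 0.05 at 0.003, 0.01 and 0.03 µM). The shares called over all genes tested at these doses were 0.0%, 0.0% and 0.63%. At 0.1 µM 12 genes were called (3.21%, against 3.74% of all genes tested), at 0.3 µM 31 (8.29% against 4.56%), at 1 µM 40 (10.7% against 8.9%) and at 3 µM 44 (11.8% against 13.2%). With the number 2 arrays put back these counts were 1, 17, 27 and 36. The count at 0.1 µM was 5 without vehicle array 1. The replicate numbers pair the samples at these doses, and with the number as a block 2 genes were called at 0.03 µM.

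With methyl methanesulfonate none was called at 1, 3, 10 or 30 µM (0 of 374 by limma, 4, 2, 3 and 3 genes having an unadjusted p under 0.05). The share over all genes tested was 0.0% at each of these doses. At 100 µM 4 genes were called (1.07% against 1.61%), at 300 µM 49 (13.1% against 12.2%) and at 500 µM 106 (28.3% against 34.6%). The replicate numbers shared by the arrays pair the samples at 100 µM, and with the number as a block 9 genes were called there. The count was 2 without any of 4 single arrays (100 µM arrays 1, 2 or 3, or vehicle array 4).

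With quercetin none was called at 1 or 3 µM (0 of 374 by limma, 3 and 8 genes having an unadjusted p under 0.05), where 0.0331% and 0.0911% of all genes tested were. At 10 µM 15 genes were called (4.01% against 1.78%), at 30 µM 87 (23.3% against 17.0%), at 60 µM 119 (31.8% against 25.4%), at 80 µM 108 (28.9% against 24.5%) and at 100 µM 127 (34.0% against 27.6%). With the number 2 arrays the counts were 0 at 10 µM (38 genes at an unadjusted p under 0.05 in limma), 53, 84, 90 and 99. Whether the shares of long non-coding RNA genes and of all genes differ was not tested.

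With the number 2 arrays, 29 of the 44 calls at etoposide 3 µM and 96 of the 127 at quercetin 100 µM held. Of the genes described below, LINC02249 (0.56), LINC01085 (0.32), SERTAD4-AS1 (-0.48) and MIR4458HG (-0.36) were then not called in etoposide. In quercetin LINC01694 (-0.71), HDAC4-AS1 (0.48), WDFY3-AS2 (0.55), ST20-AS1 (-0.40), ZBED5-AS1 (0.55), MIR924HG (-0.53) and MIR4458HG (0.49) were then not called. At lower doses the calls of SNHG19 at etoposide 0.3 and 1 µM (-0.39 and -0.34), MIR155HG at 0.3 µM (-0.57) and LINC02249 at 1 µM (0.33) were lost. So were those of MIR181A2HG at quercetin 10 µM (-0.67, adjusted p = 0.367), of SNHG1 (0.58), SNHG11 (0.58) and SNHG20 (0.60) at 30 µM and of MIR210HG at 60 µM (-0.53).

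**Figure D1:**
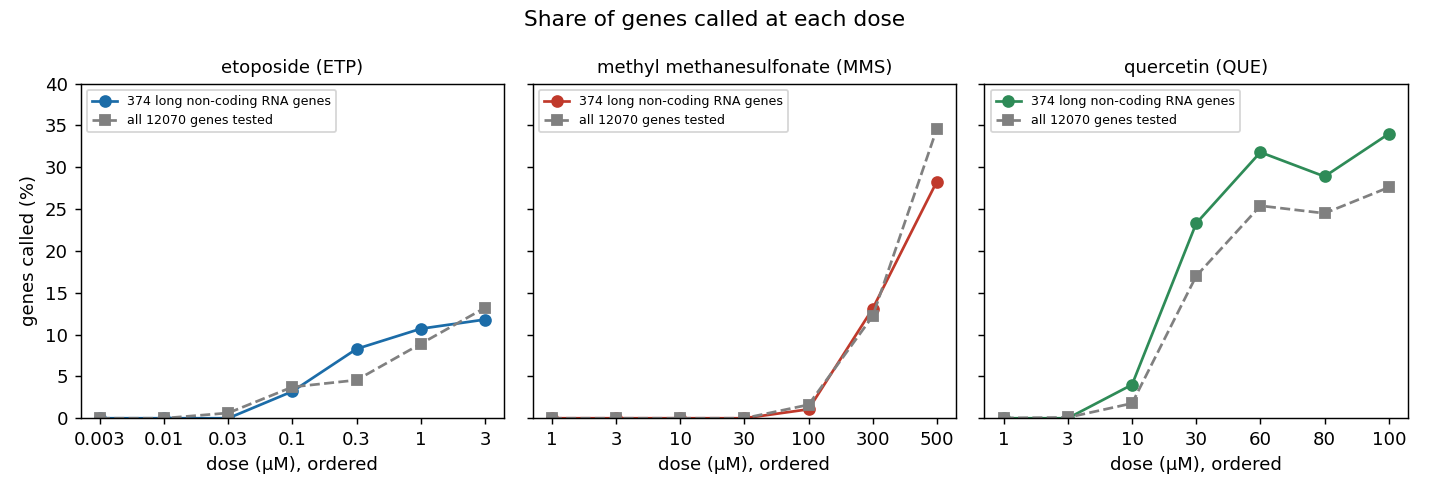
The y axis is the percent of genes called changed (limma adjusted p under 0.05 and at least 1.5-fold) and the x axis the ordered dose in µM, 1 panel per chemical, with circles for the 374 long non-coding RNA genes and squares for all 12070 genes tested. In quercetin the circles reach 34.0% and the squares 27.6% at 100 µM, and in methyl methanesulfonate the circles reach 28.3% and the squares 34.6% at 500 µM.

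At etoposide 3 µM 25 genes rose and 19 fell, at methyl methanesulfonate 500 µM 61 rose and 45 fell, and at quercetin 100 µM 77 rose and 50 fell. Over all genes tested 6.25% rose and 6.92% fell in etoposide, 17.7% and 16.9% in methyl methanesulfonate, and 13.1% and 14.5% in quercetin. The median log2 change of the 374 genes was 0.002, -0.014 and 0.105 in the 3 comparisons, where that of all genes tested was 0.008, 0.054 and 0.002. Of the called genes 0 in etoposide, 13 in methyl methanesulfonate and 11 in quercetin had both group means under 4. Counting these, the vehicle mean was under 4 in 4, 24 and 22 called genes and the dosed mean in 6, 25 and 31. The size of the change is uncertain in all of these genes. By kind, the called antisense or intronic genes numbered 22 (12 up, 10 down) in etoposide, 54 (30 up, 24 down) in methyl methanesulfonate and 66 (41 up, 25 down) in quercetin. The called LINC genes numbered 14 (11 up, 3 down), 30 (17 up, 13 down) and 42 (23 up, 19 down). The called microRNA hosts numbered 7 (2 up, 5 down), 13 (5 up, 8 down) and 10 (4 up, 6 down). The called SNHG genes numbered 1 (down), 9 (all up) and 9 (all up).

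Of the 19 snoRNA hosts, 9 rose with methyl methanesulfonate and 9 with quercetin, partly different genes, and the others were not called. At 500 µM methyl methanesulfonate SNHG1, SNHG7, SNHG8, SNHG11, SNHG12, SNHG15, SNHG17, SNHG29 and SNHG32 rose, by 0.69 (SNHG29) to 1.77 (SNHG7) on the log2 scale. At 100 µM quercetin SNHG1, SNHG7, SNHG9, SNHG11, SNHG12, SNHG19, SNHG20, SNHG28 and SNHG32 rose, by 0.60 (SNHG28) to 1.31 (SNHG20). SNHG1, SNHG7, SNHG11, SNHG12 and SNHG32 were called in both. The mean log2 level over the 19 genes went from 7.98 ± 0.06 (SD, n = 6) to 8.59 ± 0.16 (n = 5) with methyl methanesulfonate and from 8.40 ± 0.05 to 9.04 ± 0.23 (n = 5 each) with quercetin. With etoposide it was 8.51 ± 0.10 in the vehicle and 8.57 ± 0.14 at 3 µM (n = 5 each).

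SNHG1 carries 8 snoRNA genes of the box C/D class, which direct ribose methylation. In the methyl methanesulfonate vehicle its lowest, median and highest log2 values were 10.20, 10.27 and 10.48, and the 5 arrays of 500 µM were at 11.49, 11.76, 11.83, 11.97 and 12.06. The groups did not overlap, and the rise was 1.52 (SE 0.10, limma adjusted p = 4.06e-17). In quercetin the vehicle arrays were at 10.24, 10.33, 10.39, 10.47 and 10.98 and those of 100 µM at 11.41, 11.58, 11.62, 11.64 and 11.71. Every dosed array was again above every vehicle array, with a rise of 1.11 (SE 0.12, adjusted p = 1.5e-09). In etoposide the vehicle arrays were at 10.30, 10.33, 10.35, 10.52 and 11.06 and those of 3 µM at 10.24, 10.35, 10.67, 10.84 and 10.87. These groups overlapped, with a difference of 0.08 (SE 0.14, adjusted p = 0.671).

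SNHG7 had the largest rise of the family in methyl methanesulfonate. Its vehicle arrays had a lowest, median and highest value of 8.85, 9.04 and 9.18, and those of 500 µM were at 10.23, 10.83, 10.88, 10.92 and 11.04. The lowest of these, 10.23, stood well below the other 4 and was still above every vehicle array, and the rise was 1.77 (SE 0.13, adjusted p = 3.92e-16). In quercetin the vehicle arrays were at 9.04, 9.22, 9.29, 9.33 and 9.49 and those of 100 µM at 10.16, 10.52, 10.62, 10.73 and 10.76. The groups did not overlap, and the rise was 1.29 (SE 0.14, adjusted p = 1.49e-09), or 0.61 on the mean of the gene's kept probe sets (adjusted p = 0.00472). Its other kept probe set was at -0.16 in quercetin.

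The rise began below the highest doses. At methyl methanesulfonate 300 µM SNHG1 (0.71), SNHG7 (0.75), SNHG12 (0.67), SNHG15 (0.65) and SNHG32 (0.63) had risen on the log2 scale, and at 100 µM 0 of 19 were called. At quercetin 30 µM SNHG1 (0.79), SNHG7 (1.08), SNHG11 (0.72) and SNHG20 (0.77) had risen and SNHG3 had fallen by 0.62. SNHG7 changed little between 30 and 100 µM in quercetin (1.08, 1.25, 1.20 and 1.29), whereas SNHG9 was called from 80 µM on (0.96 at 80 and 1.11 at 100 µM). SNHG5 and SNHG6, at 12.05 or more in every methyl methanesulfonate vehicle array, were higher by 0.24 and 0.30 there at 500 µM and by 0.20 and 0.24 in quercetin at 100 µM, with adjusted p between 1.59e-05 and 0.000993, and stayed under the 1.5-fold limit.

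**Figure D2:**
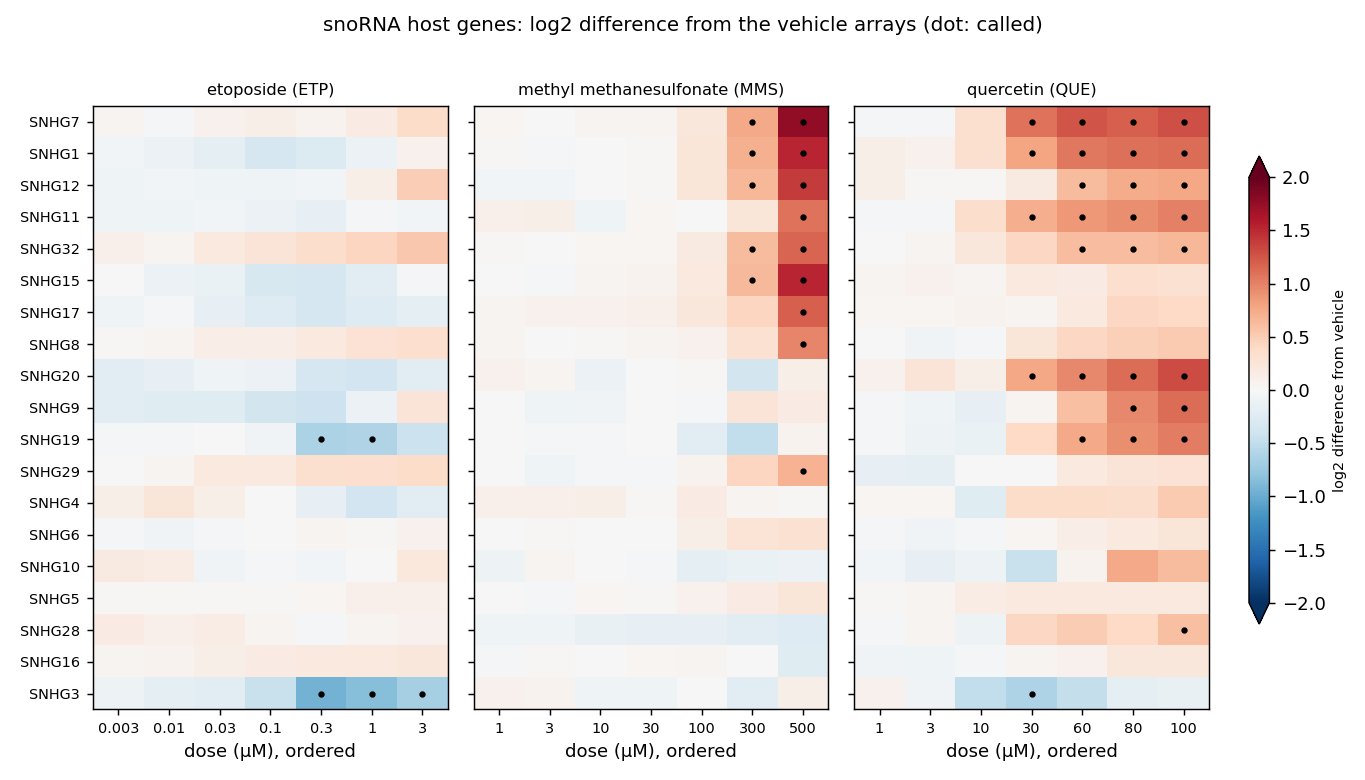
Heat map of the log2 difference from the vehicle for the 19 SNHG genes (rows) at each ordered dose in µM (columns), 1 panel per chemical, with red for higher, blue for lower and a dot for a called change. Dots on red fill the right side of the methyl methanesulfonate and quercetin panels for SNHG7 (1.77 and 1.29) and SNHG1 (1.52 and 1.11), and the etoposide panel holds dots only for SNHG3 and SNHG19, on blue.

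The difference between methyl methanesulfonate at 500 µM and quercetin at 100 µM was tested for each gene. SNHG15 changed more in methyl methanesulfonate, by 1.21 (SE 0.30, adjusted p = 0.000512), as did SNHG17 by 0.80 and SNHG12 by 0.62. SNHG20 changed more in quercetin, the difference being -1.20 (SE 0.24, adjusted p = 1.32e-05), as did SNHG19 (-0.95) and SNHG28 (-0.86). For SNHG9 the difference of -0.94 (SE 0.46, adjusted p = 0.0924) did not pass, nor did those of SNHG8 (0.45, adjusted p = 0.13) and SNHG29 (0.40, adjusted p = 0.218). These are genes called in 1 chemical whose responses were not shown to differ. Over all genes tested 28.2% differed between these groups. In SNHG12 the mean of the kept probe sets gave 0.42 for quercetin, under the limit: its brightest probe set gave 0.77, another 0.88 and another -0.45, so its direction there depends on the probe set. SNHG32 fell under it without vehicle array 1 (0.54), and SNHG28, whose vehicle mean was 3.63 ± 0.13 and thus under 4, without any of 5 single arrays (0.57 or 0.58) or with the number 2 arrays (0.54).

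In etoposide only SNHG3 and SNHG19 were called at any dose, both lower, while the median log2 change of the 19 genes at 3 µM was 0.093. SNHG3, a host of small nucleolar RNAs on chromosome 1, fell at 0.3 µM by 0.94 (SE 0.16, adjusted p = 2.73e-05), at 1 µM by 0.85 and at 3 µM by 0.66 (SE 0.16, adjusted p = 0.000815). Its vehicle arrays were at 6.58, 6.66, 6.76, 6.88 and 6.97 and those of 3 µM at 5.92, 5.96, 5.98, 6.26 and 6.42, so all 5 dosed arrays were below the vehicle arrays. SNHG19 fell by 0.63 at 0.3 µM and by 0.60 at 1 µM and was at -0.43 at 3 µM. Against methyl methanesulfonate 9 SNHG genes differed at the highest doses (47.4%, against 30.5% of all genes tested), all lower in etoposide, down to -1.56 (SNHG15). Against quercetin 7 differed (36.8% against 23.4%), all lower in etoposide, down to -1.53 (SNHG20), and none of the 7 with the number 2 arrays included.

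Of the 5 SNHG genes whose annotated start matches the oligopyrimidine run printed above, SNHG12 (on its brightest probe set) and SNHG32 rose in both methyl methanesulfonate and quercetin, SNHG19 rose in quercetin, and SNHG4 and SNHG5 were not called at either highest dose. SNHG1 and SNHG7, whose annotated starts carry 3 and 4 pyrimidines, rose in both. Outside the rule by name, GAS5 and ZFAS1 are well-known snoRNA hosts, and both were chosen for mention after their values were seen. GAS5 rose by 1.10 in methyl methanesulfonate (11.10 ± 0.28, SD, n = 6, to 12.20 ± 0.20, n = 5) and by 0.70 in quercetin (11.61 ± 0.31 to 12.31 ± 0.15), and neither call held on the mean of its kept probe sets (0.52 and 0.36). ZFAS1 rose by 1.13 and by 0.67. In etoposide they were at 0.29 (adjusted p = 0.069) and 0.26 (adjusted p = 0.0266) and not called.

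Among microRNA hosts MIR17HG moved in opposite directions. It is the precursor of the miR-17-92 cluster, whose microRNAs are known to promote proliferation and are targets of MYC and E2F. In etoposide its vehicle arrays were at 5.51, 5.55, 5.59, 5.73 and 6.83 and those of 3 µM at 4.37, 4.62, 4.86, 5.04 and 5.21. All dosed arrays were lower, although 1 vehicle array, at 6.83, stood far above the other 4, and the fall was 1.02 (SE 0.25, adjusted p = 0.00095). The fall was called from 0.1 µM (0.86) and was 1.19 at 0.3 µM and 1.12 at 1 µM. In quercetin the vehicle arrays were at 4.87, 5.05, 5.22, 5.36 and 6.13 and those of 100 µM at 6.47, 6.84, 6.86, 7.20 and 7.53. All dosed arrays were higher, and the rise was 1.65 (SE 0.27, adjusted p = 5.61e-06), with 1.21 already at 30 µM.

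In methyl methanesulfonate MIR17HG had a lowest, median and highest vehicle value of 4.85, 5.30 and 5.70 and was at 4.60, 5.09, 5.10, 5.31 and 5.67 at 500 µM. The groups overlapped (-0.12, SE 0.18, adjusted p = 0.564). The responses to etoposide and quercetin differed by -2.68 (SE 0.34, adjusted p = 2.29e-10). These calls rest on leaving out the number 2 arrays: with them the change was -0.59 (adjusted p = 0.318) in etoposide, 1.06 (adjusted p = 0.0992) in quercetin and the difference -1.64 (adjusted p = 0.117). The calls at lower doses were lost with them too, the change being -0.62 at etoposide 0.1 µM, -0.70 (adjusted p = 0.346) at 0.3 µM, -0.65 at 1 µM and 0.72 at quercetin 30 µM.

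MIR210HG, host of the hypoxia-induced miR-210, had the largest fall of any long non-coding RNA gene in methyl methanesulfonate. Its lowest, median and highest vehicle values were 5.83, 6.17 and 7.30, and at 500 µM the arrays were at 2.32, 2.92, 2.96, 3.06 and 3.12. All 5 were under 4, so the fall of 3.46 (SE 0.27, adjusted p = 7.76e-15) ends at background and its size is uncertain. At 300 µM the 6 arrays lay between 4.30 and 5.18, below every vehicle array, with a fall of 1.61 (SE 0.26, adjusted p = 3.04e-06). At 100 µM the difference was -0.75 and not called. In etoposide at 3 µM it was -0.01 (adjusted p = 0.986) and in quercetin at 100 µM -0.40 (adjusted p = 0.195), while at quercetin 60 µM it had fallen by 0.68. The response to methyl methanesulfonate differed from that to etoposide (3.45 higher in etoposide, SE 0.37, adjusted p = 1.7e-13) and from that to quercetin (-3.06, SE 0.37, adjusted p = 2.2e-11).

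MIR22HG, host of miR-22, rose with etoposide and with methyl methanesulfonate. In etoposide its vehicle arrays were at 8.32, 8.44, 8.52, 8.58 and 8.73 and those of 3 µM at 9.31, 9.33, 9.49, 9.49 and 9.75. The groups did not overlap, and the rise was 0.95 (SE 0.09, adjusted p = 3.63e-11). In methyl methanesulfonate the lowest, median and highest vehicle values were 7.52, 7.81 and 8.16, and the arrays of 500 µM were at 8.76, 8.83, 9.27, 9.41 and 9.58. These did not overlap either, with a rise of 1.33 (SE 0.15, adjusted p = 1.74e-10), and at 300 µM the difference was 0.10. In quercetin it was -0.11 (SE 0.13, adjusted p = 0.529) at 100 µM, which differed from methyl methanesulfonate by 1.44 (SE 0.18, adjusted p = 7.46e-11) and from etoposide by 1.06 (SE 0.19, adjusted p = 2.07e-06).

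MIR155HG, the gene once named BIC and host of miR-155, fell in etoposide. Its vehicle arrays were at 7.28, 7.29, 7.35, 7.59 and 7.60 and those of 3 µM at 6.12, 6.16, 6.33, 6.47 and 6.49. The groups were apart by more than a log2 unit at the mean (-1.11, SE 0.10, adjusted p = 6.4e-11), and the fall was already called at 0.3 µM (0.65). In methyl methanesulfonate it fell by 0.67 (SE 0.24, adjusted p = 0.0141) at 500 µM with overlapping groups, and the call was lost without 500 µM array 3 (-0.40, adjusted p = 0.133) or vehicle array 5 (-0.57). In quercetin it was at -0.42 (adjusted p = 0.133).

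MIR34AHG, the host of the p53-induced miR-34a, was not higher at any highest dose. In methyl methanesulfonate its lowest, median and highest vehicle values were 3.95, 4.57 and 5.16, and the arrays of 500 µM were at 3.30, 3.39, 3.39, 3.81 and 4.32. The groups overlapped in 1 array, and it fell by 0.96 (SE 0.25, adjusted p = 0.00106) to a mean under 4. In quercetin the vehicle arrays were at 5.06, 5.10, 5.22, 5.43 and 5.74 and those of 100 µM at 3.38, 4.49, 4.71, 4.80 and 5.38. It fell by 0.76 (SE 0.26, adjusted p = 0.0157), and the call was lost without 100 µM array 3 (-0.47, adjusted p = 0.101) or vehicle array 3 (-0.65, adjusted p = 0.0515). In etoposide the vehicle arrays were at 5.22, 5.25, 5.27, 5.40 and 6.03 and those of 3 µM at 4.51, 4.64, 4.89, 5.00 and 6.13. This difference of -0.40 (SE 0.26, adjusted p = 0.213) did not pass, and without 3 µM array 3 it was -0.68 and called (adjusted p = 0.0213).

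MIR663AHG was called in all 3 chemicals, in unlike directions. It rose by 1.83 (SE 0.16, adjusted p = 1.95e-13) in methyl methanesulfonate, from 5.30 ± 0.22 (SD, n = 6) to 7.13 ± 0.33 (n = 5), and fell by 0.78 (SE 0.13, adjusted p = 9.4e-06) in quercetin, from 5.19 ± 0.24 to 4.41 ± 0.15 (n = 5 each), without overlap in either. Its rise of 0.59 in etoposide overlapped and fell under the limit without any of 4 single arrays (0.43 to 0.57) or with the number 2 arrays (0.24). With them its quercetin fall was 0.57, just under the limit. The responses to methyl methanesulfonate and quercetin differed by 2.61 (SE 0.22, adjusted p = 6.3e-19).

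MIR181A2HG, host of miR-181a and miR-181b, fell with rising quercetin dose, by 0.67 at 10 µM, 0.82 at 30 µM, 1.05 at 60 and at 80 µM and 1.24 (SE 0.19, adjusted p = 1.16e-06) at 100 µM. Its vehicle arrays were at 4.48, 4.80, 4.83, 4.88 and 5.10 and those of 100 µM at 3.27, 3.38, 3.54, 3.75 and 3.93, with no overlap and the dosed mean under 4. It also fell by 0.78 in methyl methanesulfonate. MIR100HG, host of miR-100 and let-7a-2, fell in methyl methanesulfonate by 1.43 (SE 0.24, adjusted p = 6.58e-06) at 300 µM and by 1.31 at 500 µM. MIR31HG fell in methyl methanesulfonate at 100 µM by 0.62 and at 300 µM by 1.03 (SE 0.15, adjusted p = 6.73e-07), and at 500 µM its arrays were back among the vehicle arrays (-0.14, adjusted p = 0.463). The call at 100 µM was lost without any of 5 single arrays (-0.55 to -0.58). In quercetin MIR31HG fell by 0.97 at 100 µM, and this call was lost without 100 µM array 1 (-0.83) or 5 (-0.84), with the number 2 arrays (-0.84, adjusted p = 0.0622) or without the 9 arrays whose labels carry a suffix after the number (-0.67, adjusted p = 0.199).

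Of the remaining hosts, MIR4453HG rose in quercetin by 1.13 (SE 0.15) and in methyl methanesulfonate by 0.68, and MIR570HG in quercetin by 0.85. MIR550A3HG fell by 0.85 in etoposide and rose by 1.12 in methyl methanesulfonate, and the etoposide call was lost with the number 2 arrays (-0.52, adjusted p = 0.252). MIR4458HG fell in etoposide and rose in quercetin, by 0.62 each, and both calls were lost without several single arrays (-0.53 to -0.58 and 0.52 to 0.58). Both were also lost on the mean of its kept probe sets (-0.58 and 0.38), its other probe set being at -0.53 and 0.11. The quercetin call was also lost without the suffixed arrays (0.45). MIR924HG fell in all 3 (-0.87, -0.62 and -0.60), to means of 3.33, 3.34 and 3.69 that are under 4, and the calls in methyl methanesulfonate and quercetin were lost without single arrays (-0.45 to -0.58), and that in quercetin without the suffixed arrays (-0.56). MIR503HG (-0.68) and MIR4435-2HG (-0.61) fell in methyl methanesulfonate, and both calls were lost without single arrays (-0.55 to -0.58). MIR3667HG (0.65) rose there, lost without 7 of the 11 single arrays. MIRLET7BHG fell by 0.64 in quercetin on its brightest probe set, whereas the mean of its kept probe sets was 0.08 higher, so no direction can be given. MIR23AHG, MIR600HG, MIR646HG, MIR1915HG, MIR1-1HG and MIR124-1HG were called at no highest dose.

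**Figure D3:**
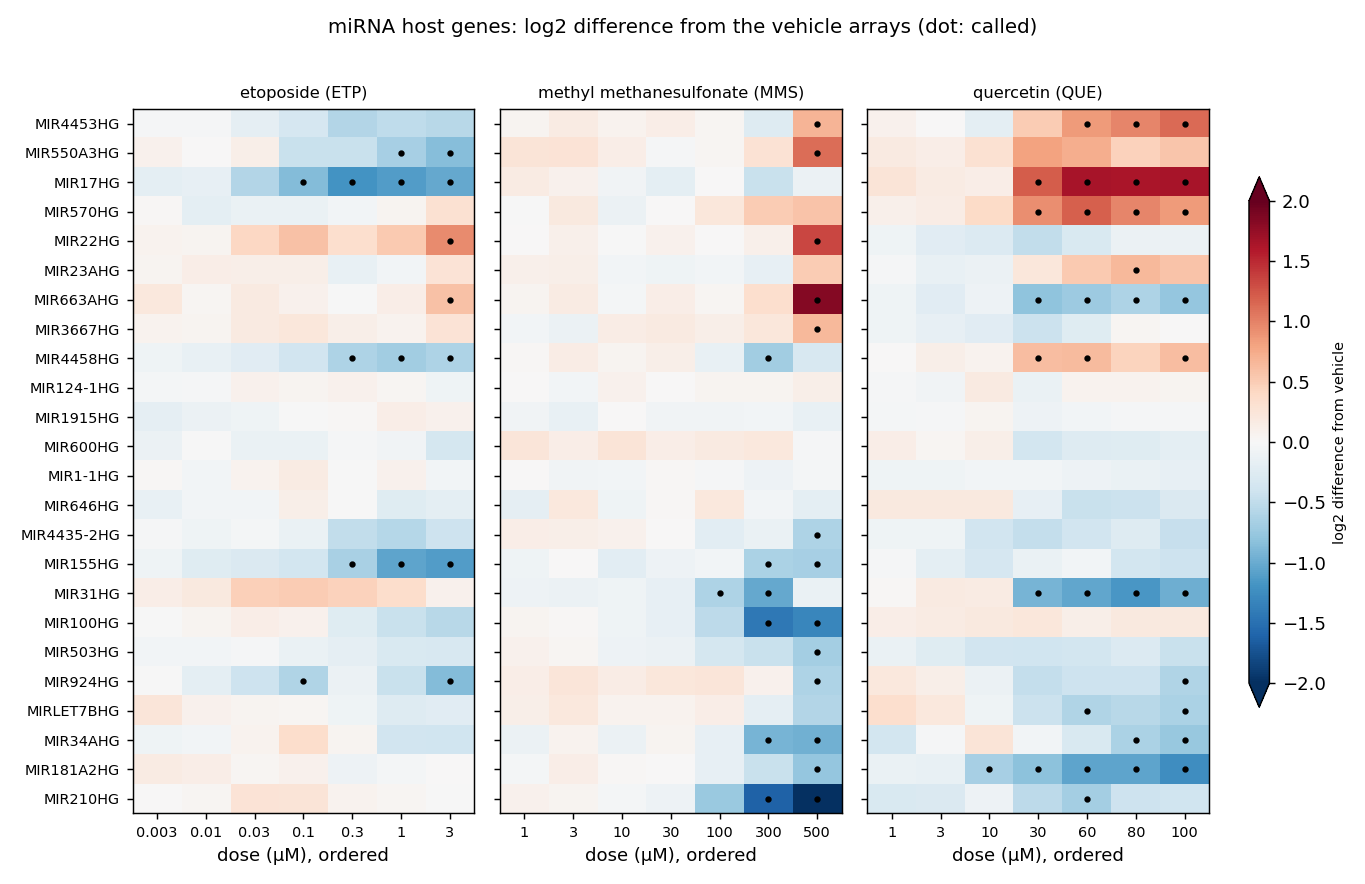
Heat map of the log2 difference from the vehicle for the 24 microRNA host genes (rows) at each ordered dose in µM (columns), 1 panel per chemical, with red for higher, blue for lower and a dot for a called change. MIR17HG is blue with dots from 0.1 µM in etoposide (-0.86) and red with dots from 30 µM in quercetin (1.21), and MIR210HG is dark blue at 300 and 500 µM in methyl methanesulfonate.

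Among intergenic genes LINC01588 had the largest rise in etoposide. Its vehicle arrays were at 4.05, 4.22, 4.26, 4.47 and 4.61 and those of 3 µM at 6.33, 6.96, 6.98, 7.08 and 7.08. The groups did not overlap, and the rise was 2.56 (SE 0.17, adjusted p = 2.14e-14), after 1.22 at 0.3 µM and 2.02 at 1 µM. In quercetin the vehicle arrays were at 3.73, 4.03, 4.18, 4.27 and 4.31 and those of 100 µM at 5.11, 6.04, 7.19, 7.20 and 7.58. These did not overlap either, with a rise of 2.52 (SE 0.34, adjusted p = 2e-07). These rises differed by 0.05 (SE 0.36, adjusted p = 0.937). In methyl methanesulfonate it rose by 0.88 (SE 0.19, adjusted p = 0.000307) at 300 µM, where the 6 arrays lay between 4.54 and 5.77, and was at 0.42 (adjusted p = 0.0685) at 500 µM.

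LINC00520 rose in all 3 chemicals. In etoposide it went from 9.31, 9.36, 9.37, 10.12 and 10.28 in the vehicle arrays to 10.91, 11.05, 11.19, 11.19 and 11.43 at 3 µM, in quercetin from 9.17, 9.21, 9.37, 9.94 and 10.44 to 10.80, 10.89, 11.11, 11.40 and 11.67 at 100 µM, and in methyl methanesulfonate from a lowest, median and highest vehicle value of 9.03, 9.36 and 10.22 to 11.05, 11.11, 11.45, 11.53 and 11.73 at 500 µM. In none of the 3 did dosed and vehicle arrays overlap, although the vehicle arrays spread over more than a log2 unit in methyl methanesulfonate and quercetin. The rises were 1.46 (SE 0.20, adjusted p = 1.65e-07), 1.55 (SE 0.27, adjusted p = 1.24e-05) and 1.95 (SE 0.23, adjusted p = 7.08e-10). It was also among the 4 genes called at methyl methanesulfonate 100 µM (0.86, SE 0.22, adjusted p = 0.0153).

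LINC02249 rose with little spread at that dose. Its vehicle arrays had a lowest, median and highest value of 7.78, 7.98 and 8.07, and the 6 arrays of 100 µM lay between 8.68 and 8.83. The gap exceeded the spread within either group, and the rise was 0.79 (SE 0.11, adjusted p = 3.37e-06), then 1.27 at 300 µM and 1.18 at 500 µM. In etoposide it rose by 0.61 at 1 µM and by 0.86 (SE 0.11, adjusted p = 3.91e-08) at 3 µM. In quercetin the difference at 100 µM was -0.53 (SE 0.16, adjusted p = 0.00722), under the 1.5-fold limit.

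LINC02806 fell in etoposide by 1.47 (SE 0.42, adjusted p = 0.00433). Its vehicle arrays spread from 4.18 to 6.8 and overlapped those of 3 µM, which were at 3.72, 4.26, 4.33, 4.45 and 4.76. It was also called at 0.1 µM, where the call was lost without any of 8 single arrays (adjusted p 0.07 to 0.139). With the number 2 arrays the calls at 0.1 µM (-0.91, adjusted p = 0.359) and 0.3 µM (-1.38, adjusted p = 0.0615) were lost.

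LINC00663 rose in quercetin, from vehicle arrays at 2.85, 3.05, 3.14, 3.25 and 3.27 to 4.91, 5.70, 5.99, 6.10 and 6.10 at 100 µM. All vehicle arrays were under 4, so the rise of 2.65 (SE 0.30, adjusted p = 8.47e-09) starts at background and its size is uncertain, and at 30 µM it was already 2.20. LINC00115 rose there by 1.67 (SE 0.41, adjusted p = 0.00108), 1 of its arrays at 8.14 standing far above the other 4 (5.34 to 6.15). LINC00963 fell by 1.80, LINC01561 by 1.53 and LINC02535 by 1.45 in quercetin. LINC01133 rose by 2.04 at 30 µM, where its arrays were at 3.12, 4.83, 5.55, 6.12 and 6.65. At 100 µM it was at 0.98 (adjusted p = 0.145), and only 2 of the 5 arrays there were above 4.

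LINC00673 fell in methyl methanesulfonate from a lowest, median and highest vehicle value of 5.51, 5.86 and 6.26 to 2.72, 2.94, 3.34, 3.36 and 3.43 at 500 µM. All dosed arrays were under 4 and below the vehicle arrays, and the fall was 2.74 (SE 0.19, adjusted p = 5.73e-17), after 1.72 at 300 µM. In quercetin it fell by 1.04 (SE 0.23, adjusted p = 0.000378), and in etoposide it was at -0.33. LINC01694 rose by 1.49 in methyl methanesulfonate and fell by 1.09 in quercetin, and the responses differed by 2.58 (SE 0.35, adjusted p = 9.18e-10). LINC01085 rose by 0.78 in etoposide and fell by 0.96 in methyl methanesulfonate and by 1.48 in quercetin, ending at a mean of 2.83 in methyl methanesulfonate and 2.86 in quercetin.

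Antisense genes were set beside the gene they are named after for the 171 pairs in which both passed the filter. The antisense gene was called in 19, 46 and 55 of these pairs and its partner in 28, 53 and 54 (etoposide 3 µM, methyl methanesulfonate 500 µM and quercetin 100 µM). Both were called at etoposide 3 µM in 5 pairs (all in the same direction), at methyl methanesulfonate 500 µM in 18 pairs (13 in the same direction) and at quercetin 100 µM in 20 pairs (15 in the same direction). Of 62 pairs that start within 1 kb of each other and run apart, both were called in 1, 5 and 7, and of the 62 other pairs with both starts known in 3, 11 and 6. The difference between these kinds of pair was not tested. At the same highest doses 13.2%, 34.6% and 27.6% of all genes tested were called. Whether both genes of a pair were called more often than unlinked genes would be was not tested either. Pairs that changed together are therefore described below without a claim that they are linked. The strand that each probe set reads was not tested, and a probe set placed in shared sequence would read both genes.

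HHIP-AS1 lies head to head with HHIP, which encodes a decoy that binds and restrains hedgehog ligands. In methyl methanesulfonate the vehicle arrays of HHIP-AS1 had a lowest, median and highest value of 7.35, 7.41 and 7.50, and the arrays of 500 µM were at 3.59, 3.99, 4.21, 4.24 and 4.25. The fall was 3.36 (SE 0.18, adjusted p = 1.83e-20), against a vehicle spread of 0.05 (SD, n = 6). HHIP itself fell by 4.64 (SE 0.17, adjusted p = 2.37e-25), from a mean of 9.08 to 4.44. In quercetin neither gene was called (-0.13 and 0.22), and 1 array of HHIP-AS1 at 100 µM was at 5.66 where the other 4 lay between 7.90 and 8.53. In etoposide both were lower by less than 1.5-fold (-0.55 and -0.38).

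TMPO-AS1 lies head to head with TMPO, which encodes a protein of the nuclear lamina (lamina-associated polypeptide 2) linked to proliferation. In etoposide the antisense gene went from 4.65, 4.76, 4.93, 4.95 and 5.34 to 3.20, 3.34, 3.35, 3.48 and 3.73 at 3 µM, in quercetin from 4.20, 4.37, 4.67, 4.95 and 5.07 to 2.30, 2.61, 3.05, 3.07 and 3.59 at 100 µM, and in methyl methanesulfonate from a lowest, median and highest of 3.66, 4.47 and 4.71 to 2.47, 2.79, 2.88, 2.96 and 3.34 at 500 µM. Dosed arrays were below vehicle arrays in all 3 and all under 4. The changes were -1.5 (SE 0.21, adjusted p = 5.41e-07), -1.73 (SE 0.27, adjusted p = 2.15e-06) and -1.49 (SE 0.27, adjusted p = 7.81e-06). TMPO fell by 1.20 in etoposide (SE 0.21, adjusted p = 1.12e-05) and by 0.83 in quercetin (SE 0.33, adjusted p = 0.0365), and in methyl methanesulfonate it was at -0.57, just under the limit. At etoposide 0.1 µM TMPO-AS1 had already fallen by 1.26 (SE 0.21, adjusted p = 7.43e-05).

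LOXL1-AS1 fell in all 3 chemicals, with changes of -1.20 (SE 0.17, adjusted p = 5.11e-07) in etoposide, -1.96 (SE 0.17, adjusted p = 2.78e-13) in methyl methanesulfonate and -1.10 (SE 0.24, adjusted p = 0.000287) in quercetin, with no overlap in any. Its partner LOXL1, a lysyl oxidase that cross-links elastin, fell by 2.33 in methyl methanesulfonate and by 1.93 in quercetin and was at 0.02 (SE 0.08, adjusted p = 0.849) in etoposide. FUT8-AS1 fell by 2.46 (SE 0.17) in methyl methanesulfonate and by 2.32 (SE 0.33) in quercetin, and FUT8, the enzyme that adds core fucose to N-glycans, fell too (-2.13 and -1.06). Another probe set of FUT8-AS1 gave -0.60 and -0.40, and the mean of its probe sets -1.53 and -1.34. SERTAD4-AS1 and SERTAD4 fell together in methyl methanesulfonate (-1.99 and -1.57) and in etoposide (-0.60 and -1.17). TRHDE-AS1 and TRHDE, an enzyme that cleaves thyrotropin-releasing hormone, fell together in etoposide (-0.82 and -0.95) and in methyl methanesulfonate (-0.68 and -3.06). The etoposide call of TRHDE-AS1 was lost with the number 2 arrays (-0.69, adjusted p = 0.0509). EPB41L4A-AS1 and EPB41L4A rose together in methyl methanesulfonate (1.67 and 1.64) and in quercetin (1.10 and 0.63).

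ITGB2-AS1 rose by 1.95 in etoposide (SE 0.45, adjusted p = 0.000669). Its vehicle arrays were at 3.17, 3.21, 3.25, 3.45 and 4.02 and those of 3 µM at 3.23, 4.59, 5.95, 6.49 and 6.60. 1 dosed array remained among the vehicle arrays, which were mostly under 4. Its partner ITGB2, the beta chain of leukocyte integrins, rose by 1.00 (SE 0.16, adjusted p = 4.22e-06), from a mean of 3.39 to 4.38.

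Pairs also moved apart. In methyl methanesulfonate ZMIZ1-AS1 rose by 1.58 and ZMIZ1 fell by 0.84, and NR2F1-AS1 rose by 1.51 while NR2F1, a nuclear receptor, fell by 1.03. SDCBP2-AS1 fell by 1.3 while SDCBP2 rose by 1.45, and TMEM44-AS1 rose by 1.07 while TMEM44 fell by 0.73. SLC25A21-AS1 rose by 0.59 while SLC25A21 fell by 0.86 with both of its group means under 4 (3.14 and 2.29). In quercetin HDAC4-AS1 rose by 0.73 and HDAC4, a histone deacetylase, fell by 1.27, AP1G2-AS1 rose by 0.97 and AP1G2 fell by 0.79, and WDFY3-AS2 rose by 0.65 and WDFY3 fell by 0.78. OTUD6B-AS1 (-0.90) and ST20-AS1 (-0.60) fell there while OTUD6B (0.61) and ST20 (0.68) rose.

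**Figure D4:**
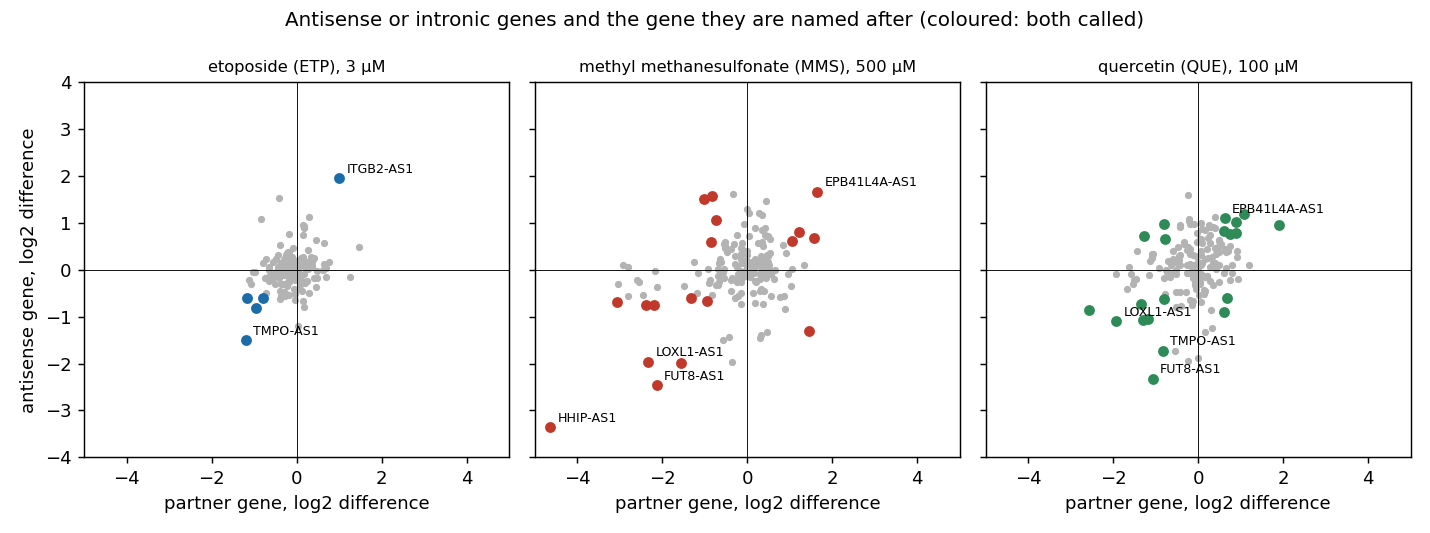
Each point is 1 of 171 antisense or intronic genes, with the log2 difference of the gene it is named after on the x axis and its own on the y axis, at the highest dose of each chemical; coloured points are pairs in which both genes were called. The methyl methanesulfonate panel holds 18 coloured points, with HHIP-AS1 at the lower left (-4.64 and -3.36) and 5 points in the quadrants of opposite sign.

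Several antisense genes were called where their partner was under the 1.5-fold limit. The difference between a gene and its partner was not tested. GAS6-AS1 rose in etoposide, from 5.87, 5.93, 6.08, 6.46 and 6.63 to 7.35, 7.67, 7.68, 7.87 and 8.05 at 3 µM. It fell in methyl methanesulfonate, from a lowest, median and highest of 5.80, 6.08 and 6.29 to 4.11, 4.40, 4.76, 4.87 and 4.98, and in quercetin, from 4.95, 5.62, 5.78, 5.92 and 5.97 to 3.44, 3.57, 3.76, 3.77 and 3.96. The groups were apart in all 3, and the changes were 1.53 (SE 0.24, adjusted p = 3.09e-06), -1.44 (SE 0.17, adjusted p = 1.1e-09) and -1.95 (SE 0.25, adjusted p = 6.7e-08). GAS6, a ligand of the TAM receptor kinases, was at -0.42 (adjusted p = 0.00163), -0.43 (adjusted p = 0.00145) and -0.23 (adjusted p = 0.124), under the limit and not called. GAS6-AS1 was already higher by 1.06 at etoposide 0.1 µM and lower by 1.34 at quercetin 10 µM, where its 5 arrays lay between 3.74 and 4.70. On the number 2 arrays it was at 6.31 in the etoposide vehicle and 3.63 at 3 µM, and at 5.46 in the quercetin vehicle and 7.17 at 100 µM. With these arrays the etoposide change was 0.83 (adjusted p = 0.353) and the quercetin change -1.34 (adjusted p = 0.0874), and neither was called, nor were the 2 lower doses.

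CKMT2-AS1 and DLGAP1-AS2 are not among the 171 pairs, so nothing is said of their partners. CKMT2-AS1 rose in quercetin from 6.46, 6.72, 6.79, 6.94 and 6.97 to 7.97, 8.62, 8.83, 8.94 and 9.05, with no overlap (1.90, SE 0.16, adjusted p = 1.58e-11), and was at -0.01 in etoposide and 0.31 in methyl methanesulfonate. INTS6-AS1 rose there by 1.6 (SE 0.26), and INTS6, a subunit of the Integrator complex, was at -0.23. PXN-AS1 fell by 1.89 in quercetin and by 1.45 in methyl methanesulfonate, and PXN, the focal adhesion protein paxillin, was at -0.01 and 0.30 (adjusted p = 0.0219, under the limit). LPP-AS2 fell by 1.74 in quercetin where LPP was at -0.55 (adjusted p = 0.00181, under the limit), and in methyl methanesulfonate LPP fell by 2.17 where LPP-AS2 was at -0.02. DLGAP1-AS2 rose in methyl methanesulfonate from a lowest, median and highest of 3.73, 3.88 and 4.54 to 5.44, 6.12, 6.64, 7.10 and 7.55 (2.57, SE 0.35, adjusted p = 1.58e-08), every dosed array being above every vehicle array. ZBED5-AS1 fell by 1.96 there (SE 0.13, adjusted p = 3.97e-17) and rose by 0.60 in quercetin, and ZBED5 was at -0.37 (adjusted p = 1.62e-07) and -0.02. ZBTB11-AS1 rose by 1.13 in etoposide and 1.47 in methyl methanesulfonate, where ZBTB11 was at 0.29 (adjusted p = 8.03e-05) and 0.43 (adjusted p = 2.58e-05). CCDC18-AS1 rose by 1.09 in etoposide.

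**Figure D5:**
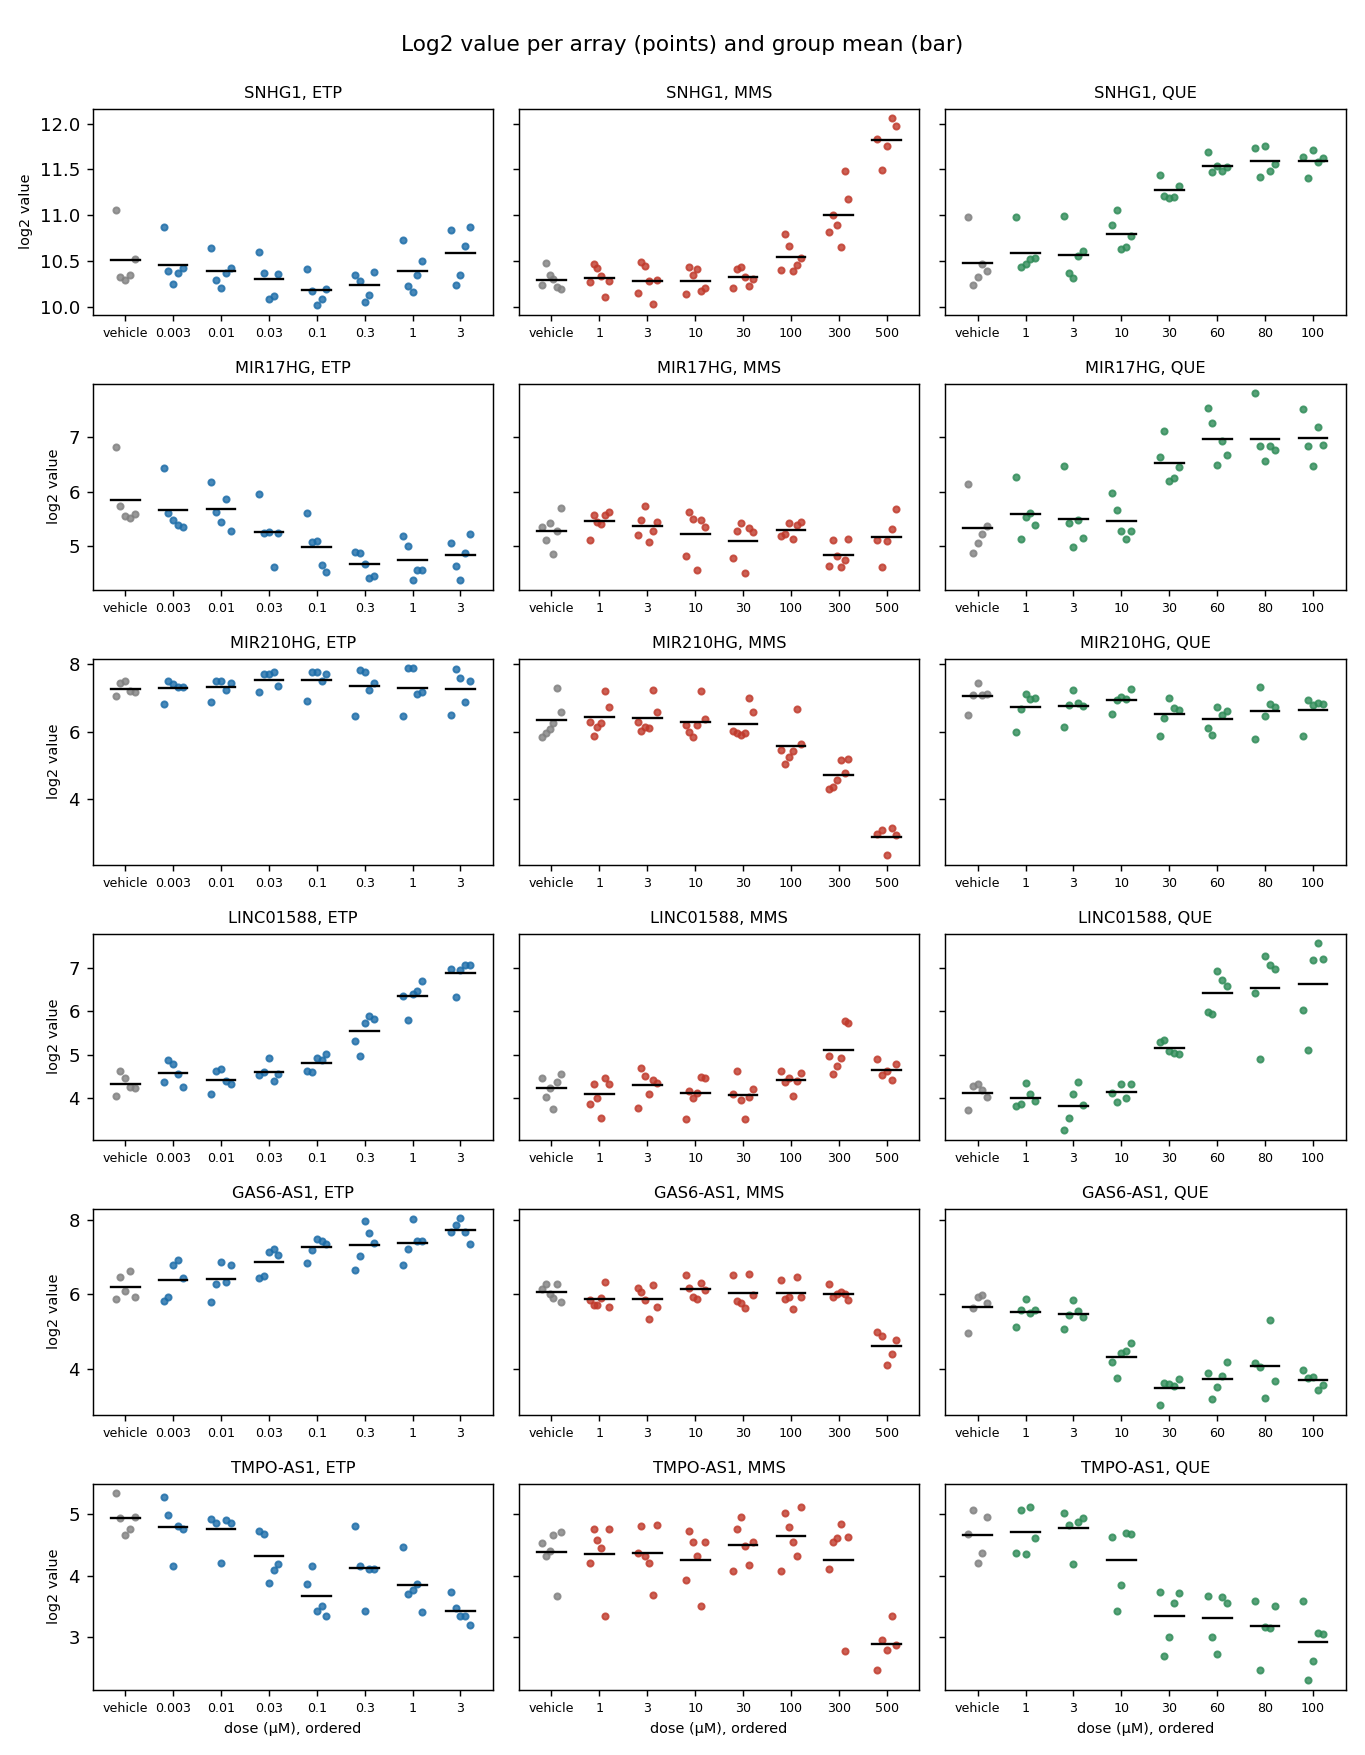
The log2 value of 6 genes (rows) in every analysed array (points) with the group mean (bar), by ordered dose in µM, 1 column per chemical. SNHG1 climbs with methyl methanesulfonate (up to 12.06) and quercetin, MIR17HG and GAS6-AS1 go opposite ways in etoposide and quercetin, MIR210HG drops in methyl methanesulfonate (down to 2.32), LINC01588 climbs in etoposide and quercetin, and TMPO-AS1 drops in all 3.

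Across the 3 highest doses 192 of the 374 genes were called at least once, 119 of them in 1 chemical, 61 in 2 and 12 in 3, and 182 were called in none. As shares these are 51.3%, 31.8%, 16.3% and 3.21%, and over all genes tested the shares were 51.2%, 31.4%, 15.4% and 4.42%. Etoposide and methyl methanesulfonate shared 23 called genes (52.3% of the etoposide list and 21.7% of the methyl methanesulfonate list), of which 10 rose in both, 10 fell in both and 3 went opposite ways. Etoposide and quercetin shared 23 (52.3% and 18.1%), with 9 up, 6 down and 8 opposite. With the number 2 arrays kept in, the etoposide calls of all 8 opposite genes were lost. Methyl methanesulfonate and quercetin shared 51 (48.1% and 40.2%), with 25 up, 20 down and 6 opposite. Over all genes tested the same pairs of chemicals shared 54.4% and 20.7%, 49.5% and 23.6%, and 43.2% and 54.1% of their lists. The chemicals do not share vehicle arrays. The opposite calls involved 14 genes. Values of MIR17HG, MIR4458HG, MIR550A3HG, MIR663AHG, GAS6-AS1, LINC01085, LINC01694 and ZBED5-AS1 are given above, as are the quercetin falls of OTUD6B-AS1 and ST20-AS1. OTUD6B-AS1 was called up in methyl methanesulfonate. ST20-AS1 rose by 0.75 in etoposide, a call lost with the number 2 arrays (0.52, limma adjusted p = 0.0953). The remaining genes were GNAS-AS1, ID2-AS1, TSPOAP1-AS1 and VLDLR-AS1.

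Called up in all 3 were LINC00520, LINC01410, EPB41L4A-AS1 and AP1G2-AS1, 4 of 374, where 1.46% of all genes tested were. Called down in all 3 were TMPO-AS1, LOXL1-AS1, CCDC144NL-AS1, EP300-AS1 and MIR924HG, 5 of 374, where 2.54% of all genes tested were. CCDC144NL-AS1 went from 9.42, 9.69, 9.74, 9.86 and 9.90 to 8.43, 8.46, 8.58, 8.83 and 9.17 in etoposide and from 9.34, 9.57, 9.59, 9.72 and 9.80 to 6.73, 7.15, 7.22, 7.29 and 7.92 in quercetin. Its groups did not overlap in any chemical, with changes of -1.03, -2.05 (methyl methanesulfonate) and -2.34. LINC01410 rose by 1.03, 0.96 and 0.85 on its brightest probe set. Its other kept probe set was at 0.32, 0.25 and 1.17. The mean of the kept probe sets gave 0.67 in etoposide and 0.61 in methyl methanesulfonate, still called. AP1G2-AS1 rose by 0.96, 0.59 and 0.97, and its call in methyl methanesulfonate was lost without any of 7 single arrays (0.42 to 0.59). EPB41L4A-AS1 was lost in etoposide without 3 µM array 3 or vehicle arrays 1 or 5 (0.52 to 0.56). EP300-AS1 was lost in etoposide without 3 µM array 3 (-0.51) or vehicle array 1 (-0.58), and in quercetin without 100 µM arrays 4 or 6 or vehicle array 6 (-0.51 to -0.61). In methyl methanesulfonate both of its group means were under 4 (3.55 and 2.83).

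The difference between 2 chemicals at their highest doses was tested directly. Etoposide and methyl methanesulfonate differed in 88 genes (23.5%, against 30.5% of all genes tested), etoposide and quercetin in 100 (26.7% against 23.4%) and methyl methanesulfonate and quercetin in 100 (26.7% against the 28.2% given above). With the number 2 arrays these counts were 68, 0 (limma, with 68 genes at an unadjusted p under 0.05) and 84. The largest difference between etoposide and quercetin was that of GAS6-AS1 (3.48, SE 0.32, adjusted p = 6.37e-16), which was 2.17 with an adjusted p of 0.119 with these arrays. The largest between etoposide and methyl methanesulfonate were those of MIR210HG (3.45), GAS6-AS1 (2.97) and HHIP-AS1 (2.81), and the largest between methyl methanesulfonate and quercetin those of HHIP-AS1 (-3.23, SE 0.37, adjusted p = 1.57e-12) and MIR210HG (-3.06).

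Well-known long non-coding RNA genes that the rule by name leaves out were taken from a list of 50, of which 22 passed the filter. In etoposide 4 rose and 2 fell (median log2 change 0.10, against 0.008 over all genes tested), in methyl methanesulfonate 4 rose and 3 fell (0.08 against 0.054) and in quercetin 8 rose and 1 fell (0.30 against 0.002). Of all genes tested 13.2%, 34.6% and 27.6% were called in these comparisons. DLEU2, host of miR-15a and miR-16-1, fell in all 3 (log2 changes of -1.88, SE 0.41, of -2.09, SE 0.49, and of -1.82, SE 0.58), or -1.18, -1.2 and -1.16 on the mean of its kept probe sets. UCA1 rose by 2.46 (SE 0.20, adjusted p = 3.8e-14) in methyl methanesulfonate, from 4.04 ± 0.19 (SD, n = 6) to 6.50 ± 0.49 (n = 5), and was at 0.03 in quercetin. Its rise of 0.77 in etoposide was lost without 3 µM array 1 (0.63), without vehicle array 5 (0.66) and with the number 2 arrays (0.52). CRNDE fell by 1.6 in methyl methanesulfonate and by 0.81 in etoposide and was at 0.25 in quercetin. MALAT1 and NEAT1, nuclear transcripts of high abundance, were called at none of the 3 highest doses.

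Of 13 long non-coding RNA genes linked to p53 in the literature, 8 passed the filter. In etoposide 2 rose and 0 fell (median 0.17), in methyl methanesulfonate 1 rose and 1 fell (median 0.08) and in quercetin 4 rose and 1 fell (median 0.76), against the 13.2%, 34.6% and 27.6% called over all genes tested. PURPL rose by 1.93 (SE 0.29, adjusted p = 1.06e-06) in etoposide, from 5.72 ± 0.40 to 7.66 ± 0.36 (SD, n = 5 each), and by 1.57 (SE 0.34, adjusted p = 0.000263) in quercetin, from 5.03 ± 0.42 to 6.59 ± 0.93. In methyl methanesulfonate it was at -0.58 (SE 0.38, adjusted p = 0.19), and without 500 µM array 2 it was called lower (-0.91, adjusted p = 0.0424). TP53TG1 rose by 1.20 (SE 0.15, adjusted p = 3.51e-08) in etoposide and by 1.18 (SE 0.20, adjusted p = 1.1e-05) in quercetin and was at 0.06 in methyl methanesulfonate. LINC-PINT rose by 1.81 (SE 0.20, adjusted p = 2.47e-09) in quercetin, from 5.48 ± 0.19 to 7.29 ± 0.21, and was at -0.20 in etoposide and 0.10 in methyl methanesulfonate. PVT1, beside MYC, rose by 1.58 (SE 0.14, adjusted p = 9.06e-11) in quercetin (0.83 on the mean of its probe sets) and by 0.64 in methyl methanesulfonate, where the call was lost on the mean of its probe sets (0.34), without 500 µM array 5 (0.49) and without vehicle array 3 (0.55). The member that fell in methyl methanesulfonate and in quercetin was MIR34AHG, whose arrays are given above.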

How the data were processed

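RNA of HT-1080 cells exposed for 24 h was labelled with biotin and hybridised to 145 arrays, 1 per sample. The authors deposited log2 probe set values for 54613 probe sets, normalized with GCRMA in Partek per the submitters' processing notes. Versions and build are not given in the sources used here, and background correction of this kind compresses differences near the floor. The 40914 probe sets with 1 gene symbol were used. A probe set was kept at a log2 value of 4 or more in 5 or more arrays, and the one with the highest mean stood for its gene (12070 genes). After the 16 number 2 arrays were left out, 129 arrays gave 127 replicates, because 2 numbers lay on 2 arrays each and were averaged. There were 0 identical pairs of arrays, and array medians lay between 3.08 and 3.59. The number of arrays limits the precision. limma 3.58.1 in R 4.3.3 (lmFit, eBayes with trend) was run per chemical over its 8 groups, with p-values adjusted by Benjamini-Hochberg over all genes of a contrast. Chemicals may have been normalized separately, so no level was compared between them, and differences between chemicals are differences of changes. The script was tested on simulated data.

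Named genes were, at each highest dose, up to 8 largest rises and 8 largest falls, up to 3 largest changes at lower doses, up to 10 genes called alike in all chemicals, up to 5 largest differences per pair of chemicals, all SNHG and microRNA hosts, up to 4 antisense pairs per chemical and up to 6 called genes of each further list; other genes named were chosen after their values were seen. The members and lists were chosen with earlier results of these data known. Same-numbered samples deviated together (every correlation over 0.1) at all doses except methyl methanesulfonate 500 µM (lowest -0.01) and quercetin 60, 80 and 100 µM (lowest 0.06, 0.07 and 0.06). Alternatives were no filter, a stricter filter, quantile normalization, the mean of a gene's probe sets, the replicate block, no trend, the number 2 arrays kept in and each array left out in turn. Leaving out 9 arrays with a suffix after the number was chosen after seeing the data.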

Additional observations from a re-analysis of the deposited data

Results flagged for a closer look

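In 10 of 124 groups of 5 or 6 replicates checked, 1 array stood far from the others by Dixon's criterion, which chance alone meets in about 1 in 20 groups. In the etoposide vehicle, LOXL1-AS1 was at 7.57 on array 3 (others 8.16 to 8.39) and MIR17HG at 6.83 on array 1 (others 5.51 to 5.73). At etoposide 3 µM, LINC01588 was at 6.33 on array 3 (others 6.96 to 7.08). In the methyl methanesulfonate vehicle, FUT8-AS1 was at 7.43 on array 6 (others 6.98 to 7.12) and TMPO-AS1 at 3.66 on array 5 (others 4.32 to 4.71). At 500 µM, MIR210HG was at 2.32 on array 4 (others 2.92 to 3.12), SERTAD4-AS1 at 3.51 on array 5 (others 4.71 to 5.14) and SNHG7 at 10.23 on array 3 (others 10.83 to 11.04). At quercetin 100 µM, LOXL1-AS1 was at 6.03 on array 3 (others 6.81 to 6.93) and MIR924HG at 4.02 on array 5 (others 3.55 to 3.65). Leaving out these arrays ended no call of these genes in that chemical.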

How the results depend on the processing

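With the number 2 arrays kept in, the genes called went from 12 to 1 at etoposide 0.1 µM, from 31 to 17 at 0.3 µM, from 15 to 0 at quercetin 10 µM (limma, 38 at an unadjusted p under 0.05), from 87 to 53 at 30 µM, and those differing between etoposide and quercetin from 100 to 0 (68 at an unadjusted p under 0.05); the cause was not tested. With the replicate block, 2 genes instead of 0 were called at etoposide 0.03 µM and 9 instead of 4 at methyl methanesulfonate 100 µM, and the block moved no other count by over 1.5 times; among single genes it ended the call of AP1G2-AS1 in methyl methanesulfonate (0.58). With single arrays left out, the counts ranged from 0 to 2 at etoposide 0.03 µM, from 5 to 14 at 0.1 µM and from 2 to 5 at methyl methanesulfonate 100 µM. MIRLET7BHG at quercetin 100 µM turned from -0.64 to 0.08 on the mean of its kept probe sets, which include 1 probe set that was 0.75 higher. Of 251 results checked, 245 kept direction and side of the threshold under quantile normalization, 244 with probe set means, 248 with no filter, 250 without a trend and 247 without the suffixed arrays. Over all 374 genes, 120 were called at quercetin 100 µM without the suffixed arrays instead of 127, and 106 were called both ways. Arrays 1 and 4 of that group and vehicle array 4 of quercetin are among those with a suffix. Under the stricter filter 223 of 223 did, but results on genes that it removes could not be checked. Under it the genes called at etoposide 3 µM, methyl methanesulfonate 500 µM and quercetin 100 µM went from 44, 106 and 127 to 37, 95 and 99. With the number 2 arrays 148 of 177 kept direction and side of the threshold, and 28 calls were lost. Quantile normalization moved the median change of all genes from 0.054 to 0.094 in methyl methanesulfonate. Many long non-coding RNA genes lie near the floor of the array, which limits the size of change that can be read.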
